A study of Mus musculus with 6 samples.

Results

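The protein genes of the cytosolic ribosome were taken from a gene count table of mouse aortas by symbol: protein-coding genes named Rpl or Rps with a number, with an optional final letter a, x, y or l for Rpl and a, x or y for Rps, plus Rplp0, Rplp1, Rplp2 and Rpsa. The name rule gave 79 of the 56748 genes listed, 49 of the large and 30 of the small ribosomal subunit. The low-count filter kept 76 of them, 46 large and 30 small, among 16377 tested genes. The study asked how loss of soluble ST2, the secreted form of the IL-33 receptor made from Il1rl1, bears on aortic disease. All mice were 6 months old, lacked apolipoprotein E (Apoe-/-) and carried an osmotic minipump that delivered angiotensin II for 28 days. One group were wild-type littermates for sST2 (WT, n = 3) and the other were littermates with sST2 knocked out (sST2-KO, n = 3), so the WT mice also lacked Apoe and also received angiotensin II. Each library is a whole-aorta mRNA library, and the labels do not say how the sST2 deletion was made.

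Cytosolic ribosomal proteins are built into the large and small ribosomal subunits around ribosomal RNA, and a working ribosome needs them in near-equal amounts. Their mRNAs are among the most abundant in most cells, and many start with a run of pyrimidines, the terminal oligopyrimidine tract, through which mTORC1 signalling controls their translation. In the diseased aorta, smooth muscle cells, fibroblasts, adipocytes and infiltrating leukocytes all contribute ribosomal mRNA, so a bulk level sums over cell types, and fewer cells of a type cannot be told apart from less RNA per cell.

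Totals were 15615658 to 17988552 counts per library. Il1rl1, the targeted gene, was counted at 2.81, 9.49 and 4.35 CPM (a library's counts put on a shared total, with TMM factors) in WT replicates 1, 2 and 3 and at 2.39, 2.82 and 4.86 CPM in sST2-KO replicates 1, 2 and 3. The groups overlapped, and a count per gene does not separate the soluble from the membrane form. The smooth muscle markers Acta2 (1644 to 6588 CPM) and Myh11 (797 to 2529 CPM) were present in all 6 libraries. Several libraries stood apart. WT replicate 2 had 37.1% of its counts on the 13 mitochondrially encoded protein genes, against 6.92% to 23.2% elsewhere. Airway epithelium markers summed to 17953 CPM in sST2-KO replicate 2 and to at most 51.1 CPM elsewhere, and hepatocyte markers summed to 8367 CPM in WT replicate 3 and to at most 7.58 CPM elsewhere.

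Near-identical copies are a property of this gene family that bears on how each member was counted. Coding sequences of the members, taken from GENCODE vM21 (GRCm38), were aligned to all transcripts of that annotation. For 65 of the 79 members at least 1 other gene, most often a processed pseudogene, matched at least 98% of bases over at least 95% of the coding sequence, and 22 members had an identical copy. The 3 pairs printed here belong to Rps27, Rpl21 and Rps27a, whose values are set beside those of a copy below. Each line is a 90-base stretch of coding sequence, 5′ to 3′, in lower case, with the bases that differ within a pair in capitals. Bases 1 to 90 of Rps27 and of its retrogene Rps27rt have no capitals, because all 255 coding bases are identical.
Rps27: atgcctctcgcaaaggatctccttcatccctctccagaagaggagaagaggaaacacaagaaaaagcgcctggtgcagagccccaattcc
Rps27rt: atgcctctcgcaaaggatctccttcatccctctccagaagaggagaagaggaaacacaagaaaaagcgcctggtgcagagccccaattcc
Bases 344 to 433 of Rpl21 and BC004004 hold 4 of their 7 differences over 483 coding bases.
Rpl21: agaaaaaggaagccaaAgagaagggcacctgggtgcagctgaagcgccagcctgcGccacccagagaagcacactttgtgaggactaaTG
BC004004: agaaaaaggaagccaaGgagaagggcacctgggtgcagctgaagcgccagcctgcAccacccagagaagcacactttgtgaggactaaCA
Bases 1 to 90 of Rps27a and its pseudogene Rps27a-ps3 hold the 1 difference in 471 coding bases.
Rps27a: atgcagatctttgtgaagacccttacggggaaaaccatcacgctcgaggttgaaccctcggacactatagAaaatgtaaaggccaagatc
Rps27a-ps3: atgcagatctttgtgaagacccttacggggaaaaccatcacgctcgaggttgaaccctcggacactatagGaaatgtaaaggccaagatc

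The pyrimidine run at the start site, the feature the family is known for, was looked for in RefSeq promoter windows (GRCm38.p6), which matched 59 of the 79 members by symbol. An unbroken run of at least 8 letters, each C or T, on the gene's own strand and within 20 bases on either side of the annotated start was present for 28 members (47.5%), against 18.4% of all 27025 symbols in that table. A match is a description of these letters, not a mapped start site. The windows below run from 10 bases before the annotated start over 30 bases, with the longest run in capitals. Rps6, Rpl28, Rpl35 and Rps9 are shown as examples of the run and do not stand for the matched members without one. The levels of Rps6 and Rpl28 are given below, as are those of many members not shown here. Rpl35 and Rps9 were chosen after their sequences were seen.
Rps6, chr4:86857348-86857377, minus strand: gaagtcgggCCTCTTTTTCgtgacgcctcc
Rpl28, chr7:4792955-4792984, plus strand: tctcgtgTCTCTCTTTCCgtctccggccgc
Rpl35, chr2:39005112-39005141, minus strand: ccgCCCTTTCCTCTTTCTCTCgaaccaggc
Rps9, chr7:3704031-3704060, plus strand: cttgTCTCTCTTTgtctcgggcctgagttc

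Over all 6 libraries, the part taken by ribosomal protein mRNAs did not separate the groups, and that rests on WT replicate 2. The members took 3.30%, 1.59% and 3.08% of all counts in WT replicates 1, 2 and 3 and 2.78%, 2.77% and 3.01% in sST2-KO replicates 1, 2 and 3. WT replicate 2 was the low library, and the other 5 lay between 2.77% and 3.30%. Group means were 2.66% ± 0.93 in WT and 2.85% ± 0.13 in sST2-KO (SD, n = 3 each), a difference of 0.19 percentage points that was smaller than the WT spread. Without WT replicate 2 the difference was -0.34 percentage points, and the shares of WT replicates 1 and 3 lay above every sST2-KO share. The exact Clopper-Pearson 95% interval of the lowest share ran from 1.59% to 1.60% and that of the highest from 3.30% to 3.31%, covering counting error only. With the mitochondrially encoded genes left out of the total, the WT shares were 4.03%, 2.53% and 3.80% and the sST2-KO shares 3.61%, 2.98% and 3.76%, so WT replicate 2 remained the lowest. WT replicates 1 and 3 again lay above every sST2-KO library. Counts on large-subunit genes were 1.34 to 1.45 times those on small-subunit genes, with means of 1.38 ± 0.05 in WT and 1.40 ± 0.04 in sST2-KO (SD, n = 3 each).

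**Figure D1:**
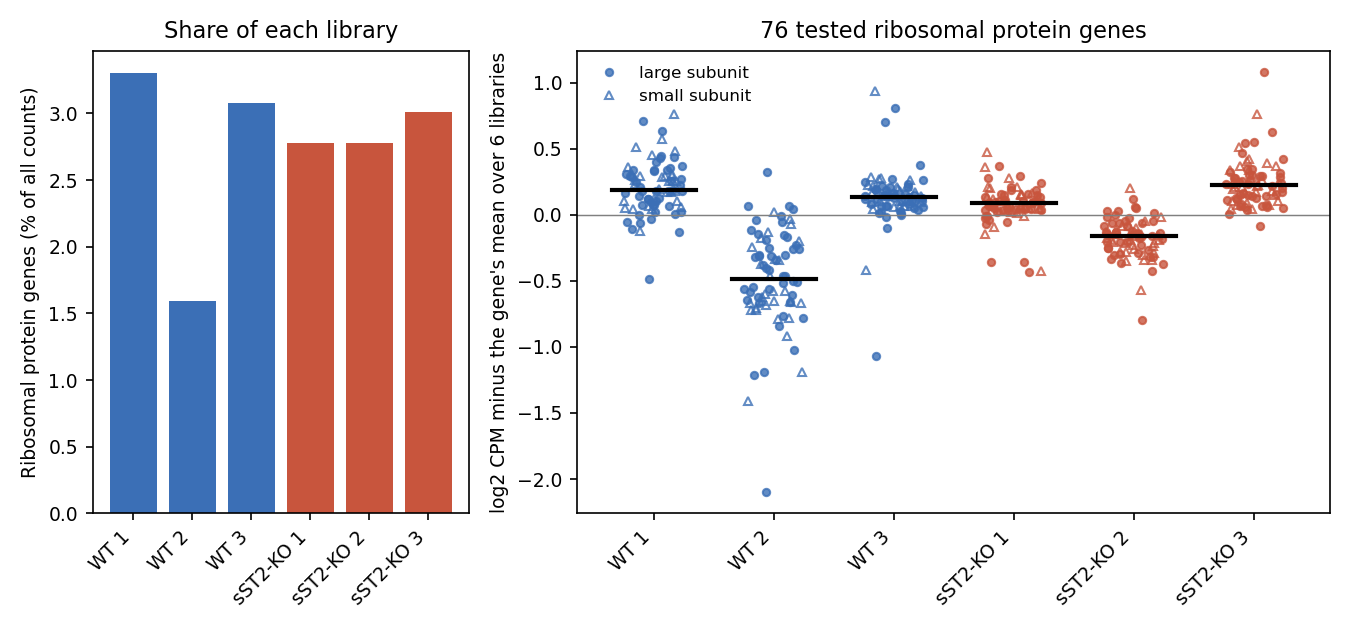
Left, the share of all counts (%) on the 79 ribosomal protein genes in each library, WT in blue and sST2-KO in red. Right, for each of the 76 tested genes, log2 CPM (prior count 2) minus that gene's mean over the 6 libraries, filled circles for the large and open triangles for the small subunit, with the median as a bar; the median is -0.49 in WT replicate 2 and lies between -0.16 and 0.22 in the other libraries.

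Between the groups, no ribosomal protein gene passed the test. The edgeR quasi-likelihood test with Benjamini-Hochberg adjustment over all tested genes called 0 of the 76 members and 0% of all 16377 tested genes at 0.05. At an unadjusted p under 0.05 it gave 0 members and 11% of all tested genes. DESeq2 called 0 members and 1.78% of all tested genes, and by limma-voom with quality weights the calls were 0 members and 0.263%. All sST2-KO values lay above all WT values for 1 member, Rpl7, against 9.09% of tested genes, and below them for 0 members, against 10%. In either direction that is 1 of 76 members, against 19.1% of all tested genes.

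The members' log2 changes (sST2-KO minus WT) lay close to 0. Their median was 0.05, against 0.04 over all tested genes, with 50 of 76 positive (53.5% of all tested genes were positive) and 26 negative. In size, 64 of 76 (84.2%) were smaller than 0.25 in size, against 40.3% of all tested genes. For 69 of the 76 the change was smaller than its own standard error (SE), whose median was 0.26. The 95% interval of the change included 0 for all 76 and lay within a 2-fold difference either way for 66 of them. The 10 members with a wider interval were Rpl7a, Rpl21, Rpl23a, Rpl24, Rpl36, Rplp2, Rps10, Rps19, Rps27 and Rps27a. Large-subunit genes had a median change of 0.06 (29 of 46 positive) and small-subunit genes 0.04 (21 of 30 positive). The sign of the members' median rests on single libraries. It was -0.15, with 14 of 76 positive, without WT replicate 2, and -0.03 without sST2-KO replicate 3.

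**Figure D2:**
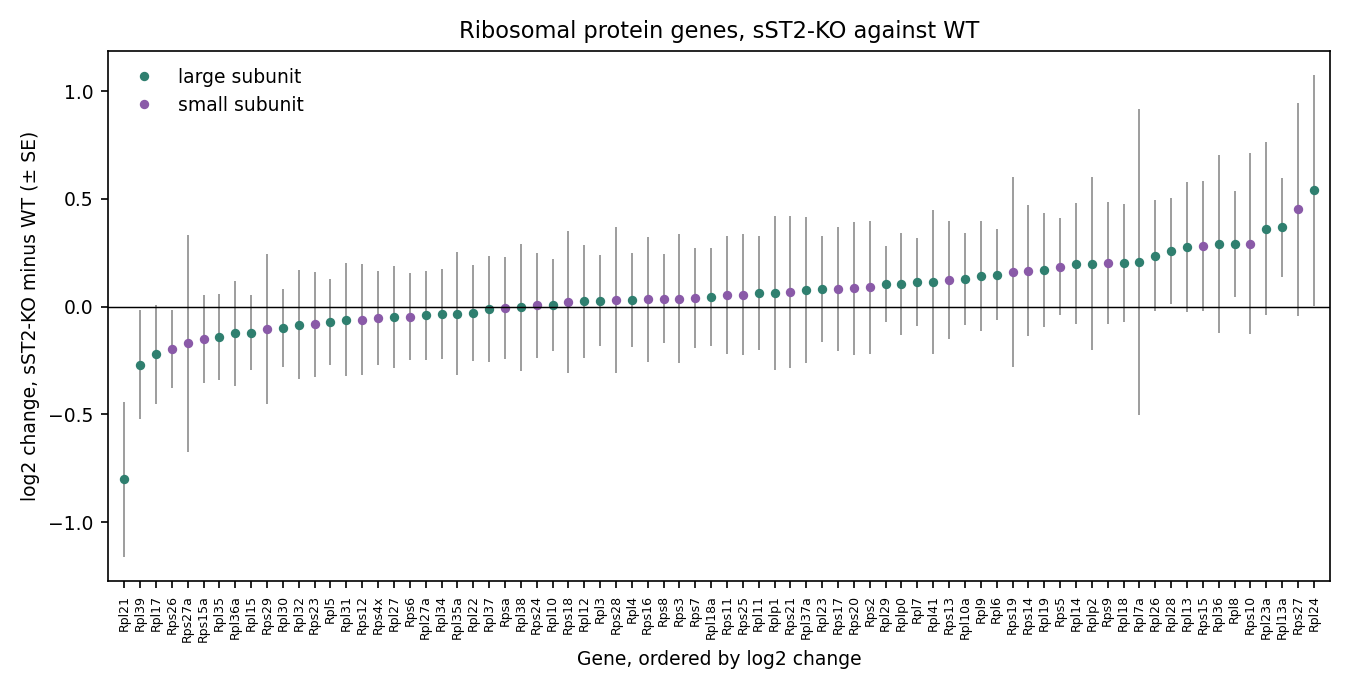
Log2 change of each tested ribosomal protein gene, sST2-KO minus WT, in order of size, with its SE as a bar (n = 3 per group), green for the large and purple for the small subunit. The changes run from -0.80 (Rpl21) to 0.54 (Rpl24), and 64 of 76 lie within 0.25 of 0.

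The stalk of the large subunit, which recruits the translation factors that hydrolyse GTP, is formed by Rplp0, Rplp1 and Rplp2. Rplp0, its anchoring protein, had 948, 763 and 1047 CPM in WT replicates 1, 2 and 3 and 983, 983 and 998.6 CPM in the sST2-KO replicates. All sST2-KO values fell inside the WT range. Its mean was 919 ± 144 in WT and 988 ± 9.08 in sST2-KO (SD, n = 3 each). The log2 change was 0.10 (SE 0.24, adjusted p = 0.866, edgeR quasi-likelihood test). Rplp1 had 848, 350 and 714 CPM in WT and 677, 573 and 749 CPM in sST2-KO, and Rplp2 had 257, 99.7 and 244 CPM in WT and 231, 163 and 297 CPM in sST2-KO. For both of these small acidic proteins WT replicate 2 was far below the rest and the groups overlapped, with log2 changes of 0.06 (SE 0.36) for Rplp1 and 0.20 (SE 0.40) for Rplp2.

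Per kilobase of the deposited gene length, Rplp1 was the highest of the members at 1306 CPM per kilobase, followed by Rps15 at 753 and Rplp0 at 575. Rps15, a small-subunit protein near the decoding site, had 519, 283 and 482 CPM in WT and 531, 413 and 618 CPM in sST2-KO, a log2 change of 0.28 (SE 0.30). Its groups overlapped, with WT replicate 2 lowest. Among the 76 tested members, the 3 lowest per kilobase were Rpl13a (6.91 CPM per kilobase), Rps10 (2.44) and Rpl24 (1.44). These 3 are core ribosomal proteins, and each has a span in the deposited table that overlaps another gene on the same strand, Gm45713, Gm49804 and Gm28037 respectively. Each of those overlapping genes had 0 counts in every library. Rpl19, named after its values were seen, also overlaps such a gene (Gm11629) and had 264 to 474 CPM. For Rps10 the pseudogene Rps10-ps2, 98.99% identical over the coding sequence, held 10181 counts over all libraries and Rps10 itself 571. How reads in overlapping genes or in copies were assigned is not given in the sources used here, so the low levels of these 3 genes, and their changes, are uncertain.

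Rpl5 and Rpl11, which bind Mdm2 when ribosome assembly is disturbed, had groups that overlapped. Rpl5 had 557, 576 and 560 CPM in WT and 548, 489 and 574 CPM in sST2-KO, a range of 1.18-fold over the 6 libraries. It was the only member for which WT replicate 2 was the highest library. Rpl11 had 405, 234 and 350 CPM in WT and 355, 293 and 387 CPM in sST2-KO, with WT replicate 2 lowest. The log2 changes were -0.07 (SE 0.20) for Rpl5 and 0.06 (SE 0.26) for Rpl11.

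Rpl3 and Rpl10 lie at the catalytic core, Rpl3 near the peptidyl transferase centre and Rpl10 being added late in assembly. Rpl3 had 682, 567 and 680 CPM in WT and 667, 621 and 678 CPM in sST2-KO, and Rpl10 had 778, 663 and 772 CPM in WT and 733, 725 and 768 CPM in sST2-KO. Both were even across the libraries, at 1.20-fold and 1.17-fold from lowest to highest, and their log2 changes were 0.03 (SE 0.21) and 0.01 (SE 0.21). Rpl22, an RNA-binding protein with the paralog Rpl22l1, had 153 to 238 CPM in WT and 176 to 215 CPM in sST2-KO. Rpl38, known for its part in the translation of patterning genes, had 84.7 to 167 CPM in WT and 104 to 154 CPM in sST2-KO. Rpl41, the shortest member with 78 coding bases, had 372 to 730 CPM in WT and 478 to 791 CPM in sST2-KO. In these 3 genes the groups overlapped and WT replicate 2 was again the lowest library.

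In the small subunit, Rpsa, also described as a laminin receptor precursor, had 1016, 893 and 1043 CPM in WT and 1002, 842 and 1097 CPM in sST2-KO. The groups overlapped, and the log2 change was -0.01 (SE 0.24). Rps6, the protein phosphorylated by the S6 kinases downstream of mTORC1, had 589, 559 and 595 CPM in WT and 535, 539 and 614 CPM in sST2-KO. Its range was only 1.15-fold across the libraries, with a log2 change of -0.05 (SE 0.20, adjusted p = 0.933, edgeR quasi-likelihood test), and the 95% interval of that change ran from -0.52 to 0.43.

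Rps19, mutated in Diamond-Blackfan anaemia, had 436, 136 and 375 CPM in WT and 401, 255 and 403 CPM in sST2-KO. WT replicate 2 was lowest and the range was 3.20-fold. Rps14, whose loss marks a form of myelodysplastic syndrome, had 564, 290 and 484 CPM in WT and 491, 417 and 595 CPM in sST2-KO. Rps25, needed by some internal ribosome entry sites, had 425, 234 and 387 CPM in WT and 379, 302 and 406 CPM in sST2-KO. The groups overlapped in all 3 genes, with log2 changes of 0.16 (SE 0.44), 0.17 (SE 0.31) and 0.06 (SE 0.28).

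The positive changes with the lowest p were those of Rpl13a, Rpl8, Rpl28 and Rpl24, and none passed the threshold. Rpl13a, a snoRNA host gene, had 10.2, 13.0 and 15.03 CPM in WT and 17.0, 14.7 and 17.7 CPM in sST2-KO, a log2 change of 0.37 (SE 0.23, adjusted p = 0.546, edgeR quasi-likelihood test). Rpl8, a protein near the peptidyl transferase centre, had 472, 319 and 499 CPM in WT and 522, 491 and 564 CPM in sST2-KO, a change of 0.29 (SE 0.24). The groups overlapped by 1 library in each of them. Rpl28 had 288, 184 and 294 CPM in WT and 307, 266 and 342 CPM in sST2-KO. Rpl24, with only 145 counts over all libraries, had 1.27, 1.75 and 0.60 CPM in WT and 1.82, 1.24 and 2.20 CPM in sST2-KO, and its change of 0.54 had an SE of 0.54. Rpl7, singled out after its values were seen as the member whose groups did not overlap, had 663, 633 and 688 CPM in WT and 705, 700 and 742 CPM in sST2-KO. That change was 0.11 on the log2 scale (SE 0.20, adjusted p = 0.828, edgeR quasi-likelihood test).

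The negative changes with the lowest p were those of Rpl21, Rps26, Rpl39 and Rpl17, and none passed the threshold either. Rps26, which lies where mRNA leaves the small subunit, had 312, 280 and 297 CPM in WT and 250, 242 and 284 CPM in sST2-KO, a log2 change of -0.20 (SE 0.18). One sST2-KO library, replicate 3, lay above the lowest WT library. Rpl39, a short protein of the exit tunnel, had 254, 152 and 227 CPM in WT and 194, 141 and 190 CPM in sST2-KO, a change of -0.27 (SE 0.25). Rpl17, also at the exit tunnel, had 160, 125 and 113 CPM in WT and 94.4, 103 and 144 CPM in sST2-KO, a change of -0.22 (SE 0.23). With the counts of its 9 near-identical copies added, which held 67.6% of the summed counts, the Rpl17 change was 0.07 (SE 0.22).

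Rpl21 (ENSMUSG00000041453, mm39 chr5:146769700-146773842) had the lowest p of all members. It had 101, 46.6 and 107 CPM in WT replicates 1, 2 and 3 and 48.0, 35.3 and 63.0 CPM in sST2-KO replicates 1, 2 and 3. WT replicates 1 and 3 were above every sST2-KO library, while WT replicate 2 lay among the sST2-KO values. WT averaged 84.9 ± 33.4 CPM and sST2-KO 48.8 ± 13.9 CPM (SD, n = 3 each). On the log2 scale the change was -0.80 (SE 0.36, adjusted p = 0.465, edgeR quasi-likelihood test), and the 95% interval ran from -1.65 to 0.05. Its 16 near-identical copies held 67.5% of the summed counts. The one with the most counts, the protein-coding BC004004 (mm39 chr17:29487762-29533039), had 70.3, 58.3 and 65.5 CPM in WT and 81.1, 68.1 and 79.3 CPM in sST2-KO, a log2 change of 0.24 (SE 0.15). With all copies added, the summed level was 235, 151 and 245 CPM in WT and 203, 164 and 234 CPM in sST2-KO, and the change was -0.07 (SE 0.25).

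Rps27 (ENSMUSG00000090733, mm39 chr3:90119829-90120958) varied most between libraries after Rpl7a. It had 186, 41.1 and 82.0 CPM in WT and 153, 126 and 144 CPM in sST2-KO, and the sST2-KO values lay between the highest and the other WT values. The retrogene Rps27rt (ENSMUSG00000050621, mm39 chr9:114811434-114811807), with the identical coding sequence shown above, had 26.9, 88.2 and 141 CPM in WT and 31.5, 32.0 and 57.7 CPM in sST2-KO. The libraries low in Rps27, WT replicates 2 and 3, were the ones high in Rps27rt, which held 68.2% and 63.3% of the pair's sum there and 12.6% to 28.6% elsewhere. The sum of both was 213, 129 and 223 CPM in WT and 184, 158 and 202 CPM in sST2-KO, with means of 189 ± 51.6 and 181 ± 22.0 (SD, n = 3 each). The log2 change of Rps27 alone was 0.45 (SE 0.50) and that of Rps27rt was -1.08 (SE 0.57, adjusted p = 0.4997, edgeR quasi-likelihood test). Without WT replicate 1 the Rps27 change was 1.20, and with copies added it was -0.06. Reads from identical coding sequence cannot be told apart by that sequence, so how these genes divide their counts is uncertain.

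Rps27a (ENSMUSG00000020460, mm39 chr11:29495846-29498109), which is made as a fusion with ubiquitin, split the libraries in a way that crossed the groups. It had 155, 113 and 323 CPM in WT. The sST2-KO libraries had 126, 114 and 286 CPM, so replicate 3 of each group was high and the others low. Rps27a-ps3, which differs by 1 coding base, had 12.1, 14.1 and 6.26 CPM in WT and 13.1, 8.31 and 5.99 CPM in sST2-KO, lowest in those same libraries. The log2 change of Rps27a was -0.17 (SE 0.50), and it was 0.39 without WT replicate 3 and -0.72 without sST2-KO replicate 3.

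Rpl7a, chosen after its values were seen, had the widest range of all members. It had 232, 34.8 and 243 CPM in WT and 110, 162 and 317 CPM in sST2-KO, 9.11-fold from lowest to highest. WT replicate 2 was far below the others and sST2-KO replicate 1 was the next lowest. Its 10 near-identical copies held only 6.59% of the summed counts, and with them added the level was still 45 CPM in WT replicate 2 and 132 to 331 CPM in the other libraries. The log2 change of Rpl7a was 0.21 (SE 0.71).

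**Figure D3:**
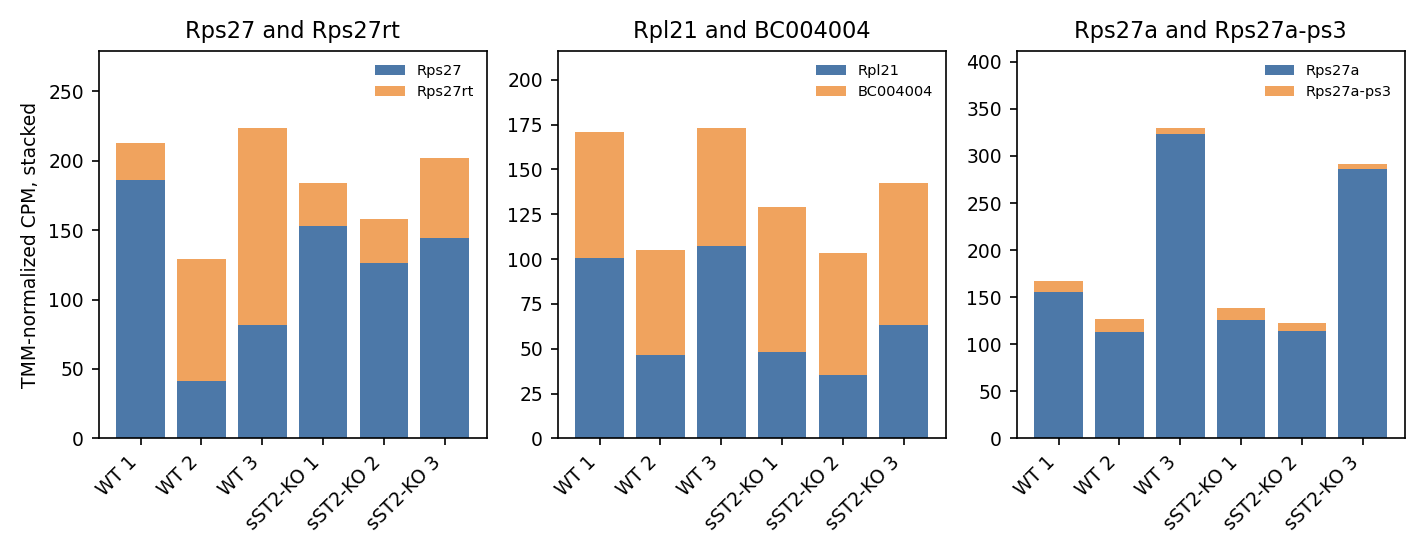
TMM-normalized CPM of 3 ribosomal protein genes (blue) with a near-identical gene stacked on top (orange) in each library; the scales differ between panels. Rps27rt exceeds Rps27 in WT replicates 2 and 3, Rpl21 varies more than BC004004, and Rps27a is high in replicate 3 of both groups.

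The 3 members Rpl3l, Rpl39l and Rpl10l failed the low-count filter, and each is a copy known mainly from other tissues. Rpl3l, of heart and skeletal muscle, had 3, 0 and 1 counts in WT and 3, 3 and 6 in sST2-KO. Rpl39l, of testis, had 5, 0 and 0 counts in WT and 6, 9 and 0 in sST2-KO. Rpl10l, of testis, had 0 counts in all 6 libraries, which allows up to 0.148 to 0.239 CPM at 3 counts per library. No difference between groups was detectable for these genes at this depth.

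Apart from the groups, WT replicate 2 was the library farthest from the rest in these genes, and unevenly so over the members. WT replicate 2 was the lowest library for 56 of the 76 tested members and sST2-KO replicate 2 for 15. Over the members, the median deviation (log2 CPM less its mean over the 6 libraries for that gene) was 0.19, -0.49 and 0.14 in WT, and the sST2-KO libraries had 0.09, -0.16 and 0.22. The SD among members was 0.38 in WT replicate 2 and 0.15 to 0.22 in the other libraries. Rpl7a, Rps27, Rpl23a, Rps19 and Rpl36 were the farthest below the members' median in WT replicate 2 (Rpl23a and Rpl36 are named after their values were seen). Rpl4, another exit tunnel protein named here after its values were seen, had 896 CPM there and 783 to 934 CPM in the other libraries, so it was not low.

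The medians in WT replicate 2 were lower for members with shorter coding sequences, although the lowest member there, Rpl7a, has 801 coding bases. Members with under 450 coding bases (36 genes) had a median deviation of -0.57 there, those from 450 to 750 bases (28 genes) -0.52, and those of 750 or more (12 genes) -0.16. Other tested protein-coding genes of the same classes had medians of -0.29, -0.13 and 0.03. In sST2-KO replicate 2 the members' medians were -0.25, -0.14 and -0.05, and in WT replicate 1 they ran the other way at 0.29, 0.13 and 0.03. The order of the classes differed between libraries of the same group, and length was not separated from other properties of the genes, such as GC content. Over the members in WT replicate 2, the deviation had a Spearman correlation of -0.39 with coding GC content and 0.34 with coding length. Over other tested protein-coding genes these were -0.37 and 0.20. The members' correlations with GC content and length were 0.03 and -0.66 in WT replicate 1, and 0.17 and 0.61 in sST2-KO replicate 2.

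Marker levels of other cell types also varied between the libraries. In WT replicate 2 the brown adipocyte markers summed to 14.6 CPM, against 95.8 to 2118 CPM elsewhere. The white adipocyte markers summed to 1653 CPM there, against 1297 CPM in sST2-KO replicate 2 and 4404 to 9138 CPM in the others. Smooth muscle markers summed to 9749 CPM in WT replicate 2, against 3199 to 10835 CPM elsewhere. Of these 3 sums, only the brown adipocyte sum was lowest in WT replicate 2: the white adipocyte sum was lowest in sST2-KO replicate 2, and the smooth muscle sum was highest in sST2-KO replicate 3. Among other lists, the striated muscle sum was also lowest in WT replicate 2, at 20.8 CPM against 46.7 to 324 CPM elsewhere. The airway epithelium sum was lowest there too, at 20.6 CPM, close to 21.0 CPM in sST2-KO replicate 3. All 6 brown and all 5 white adipocyte markers were found, and Cpt1b was the only one at 0 in a library. Macrophage markers summed to 818, 813 and 786 CPM in WT and 498, 313 and 318 CPM in sST2-KO. All 6 were lower in sST2-KO without overlap, against 10% of all tested genes. The 6 fibroblast markers were also all lower, 4 of them without overlap. All 5 erythroid markers had negative changes with overlapping groups. Their sums were 4760, 744 and 4524 CPM in WT and 1174, 60.3 and 640 CPM in sST2-KO. All 7 smooth muscle and all 6 endothelium markers had positive changes, all with overlapping groups. The edgeR test called no gene of these lists. The part of these shifts in the ribosomal protein levels was not tested.

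**Figure D4:**
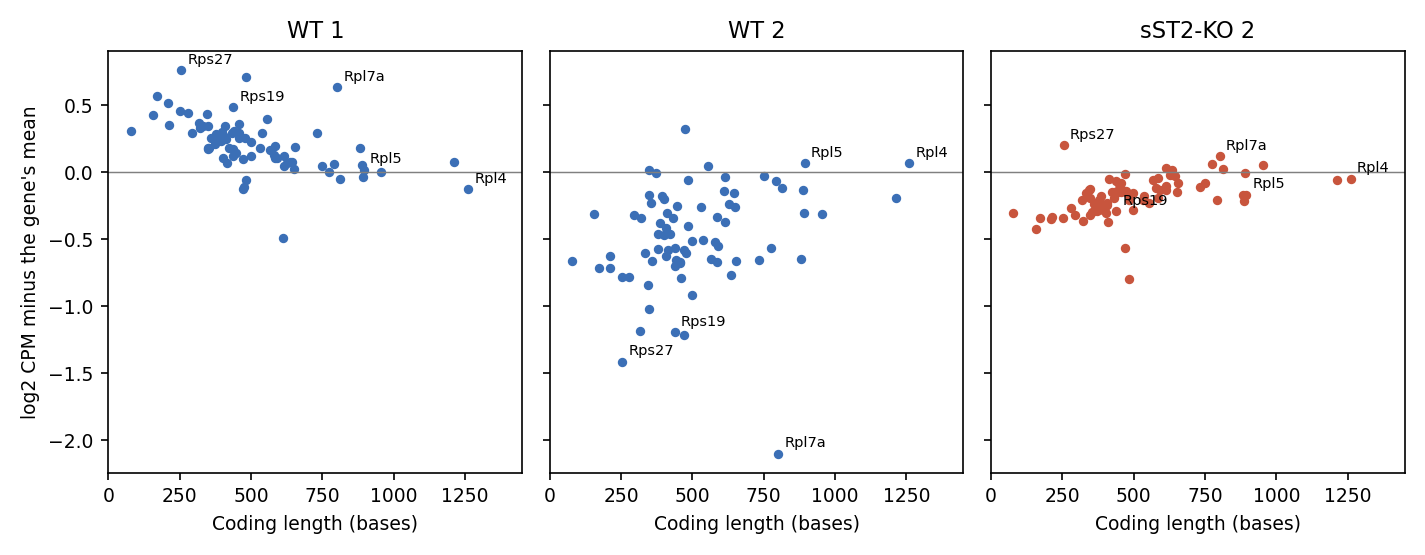
Log2 CPM (prior count 2) minus the gene's mean over 6 libraries, against coding length in bases, for the 76 tested ribosomal protein genes in WT replicate 1, WT replicate 2 and sST2-KO replicate 2. Most short genes sit highest in WT replicate 1 and lowest in the 2 other libraries, with Rpl7a at the bottom in WT replicate 2 and Rpl4 and Rpl5 near 0.

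The machinery around the ribosome was read from lists of genes, and edgeR's quasi-likelihood test called no gene of any of them. Ribosomal proteins and paralogs outside the name rule (9 genes) had a median log2 change of 0.04, with 7 positive and 2 negative. Among them Fau, which is made as a fusion with a ubiquitin-like protein, had 343, 140 and 299 CPM in WT and 328, 256 and 353 CPM in sST2-KO (chosen after its values were seen). It had the same low WT replicate 2 as most members. The translation factor list (20 genes) holds translation factors and other genes of the terminal oligopyrimidine class. Gas5, Snhg1, Snhg8, Hnrnpa1 and Tpt1 are among those that are not translation factors. Its median was -0.01, with 9 positive and 11 negative. Groups did not overlap for 3 of the 20, all higher in sST2-KO, against 9.09% of all tested genes higher and 19.1% in either direction. Eef1d, an elongation factor subunit named for the lowest p of that list, had 105, 82.7 and 110 CPM in WT. In sST2-KO it had 131, 127 and 149 CPM, without overlap, a change of 0.45 (SE 0.18, adjusted p = 0.443, edgeR quasi-likelihood test).

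RNA polymerase I and its factors, which make the ribosomal RNA precursor, had a median log2 change of 0.16 over 14 genes, 9 of them positive, and 4 had groups that did not overlap, all higher in sST2-KO, against 9.09% of all tested genes higher and 19.1% in either direction. Ubtf, the factor that binds ribosomal DNA, had 122, 84.7 and 119 CPM in WT and 123, 135 and 144 CPM in sST2-KO, a change of 0.31 (SE 0.19). Ribosome assembly factors (30 genes) had a median of 0.06, with 18 positive and 12 negative. Bop1, of large-subunit assembly, had 27.3, 35.4 and 32.1 CPM in WT and 43.5, 32.9 and 45.6 CPM in sST2-KO, with overlap in sST2-KO replicate 2.

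The list for mTORC1 and MYC control of ribosome production (16 tested genes) had a median of 0.15, with 12 positive and 4 negative. Groups did not overlap for 3 of the 16, all higher in sST2-KO, against 9.09% of all tested genes higher and 19.1% in either direction. Rps6kb2 and Akt1s1 are named because they had the lowest p of that list. Rps6kb2, an S6 kinase that phosphorylates Rps6, had 31.3, 26.6 and 31.5 CPM in WT and 43.1, 37.1 and 45.7 CPM in sST2-KO without overlap, a change of 0.49 (SE 0.16, adjusted p = 0.431, edgeR quasi-likelihood test). Akt1s1, an mTORC1 inhibitor, had 31.0, 19.0 and 32.1 CPM in WT and 41.9, 33.8 and 47.1 CPM in sST2-KO, also without overlap, with a change of 0.58 (SE 0.25). The p53 targets linked to nucleolar stress (13 genes) were split, with 7 positive and 6 negative and a median of 0.19. Groups did not overlap for 1 higher and 2 lower of the 13, against 19.1% of all tested genes in either direction. Ccng1 and Sesn2 had the lowest p of these. Within that list Ccng1 had 123, 154 and 118 CPM in WT and 100, 84.3 and 92.1 CPM in sST2-KO, all lower, with a change of -0.51 (SE 0.17), while Sesn2, an inhibitor of mTORC1, was at 7.41 to 13.7 CPM in WT and 15.4 to 19.6 CPM in sST2-KO, all higher.

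The proteins of the mitochondrial ribosome, the other ribosome of the cell, are given beside the cytosolic members. Of 77 tested genes, 74 had positive changes, against 53.5% of all tested genes, and the median was 0.40. An unadjusted p under 0.05 was given to 9 of the 77, a share near the 11% of all tested genes, and to 0 of the 76 cytosolic members. Groups did not overlap for 15, all higher in sST2-KO, against 9.09% of all tested genes higher and 19.1% in either direction. Mrps12, of the small mitochondrial subunit, had 6.89, 1.99 and 8.47 CPM in WT and 22.4, 15.5 and 23.4 CPM in sST2-KO, a change of 1.81 (SE 0.51, adjusted p = 0.413, edgeR quasi-likelihood test). The difference between the cytosolic and mitochondrial lists was not tested. Both had their lowest median deviation in WT replicate 2, -0.49 and -0.51. That library was also lowest, at -0.08 to -0.17, in the translation factor, RNA polymerase I, assembly factor, mTORC1 and MYC, and p53 lists. Brown adipocyte markers, which belong to a cell type rich in mitochondria, summed to 256, 14.6 and 174 CPM in WT and 1137, 95.8 and 2118 CPM in sST2-KO, and their part in the mitochondrial list was not tested.

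**Figure D5:**
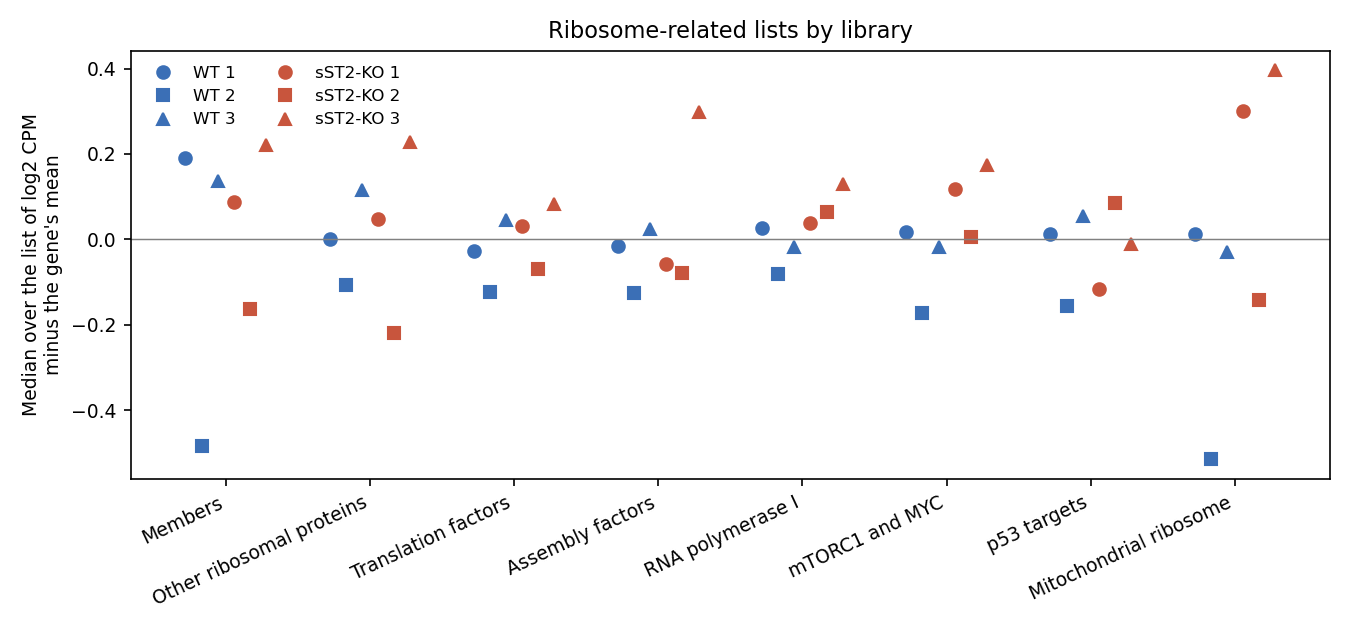
Median deviation over each list (log2 CPM with prior count 2, less the 6-library mean for that gene), for the ribosomal protein genes (Members) and 7 related lists, WT in blue and sST2-KO in red, with circle, square and triangle for replicates 1, 2 and 3. WT replicate 2 has the lowest median in every list shown except the other ribosomal proteins. It is -0.49 in the cytosolic and -0.51 in the mitochondrial list, and -0.08 to -0.17 in the rest of those lists. The cytosolic sST2-KO medians of 0.09, -0.16 and 0.22 overlap those of WT.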

How the data were processed

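The members and gene lists were chosen with earlier results of these data known. The authors deposited 1 table of raw, unscaled counts for 6 libraries, by Ensembl gene. Per the labels' protocols, libraries were made from poly-T selected mRNA with random hexamer priming. The submitters' processing notes name build mm39. Not given in the sources used here are the aligner, counter, strand setting and annotation version. Symbols, biotypes, lengths and coordinates are those of the deposited table.

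Samples were grouped by their titles. The labels name no batch. The test was edgeR 4.0.16 (R 4.3.3) on the deposited counts: filterByExpr (minimum count 10, minimum total 15), TMM scaling, glmQLFit and glmQLFTest on all tested genes, Benjamini-Hochberg adjustment, threshold 0.05. Dividing the size of a log2 change by the square root of F gave its SE, and intervals at the 95% level use the fit's degrees of freedom. CPM are TMM-normalized, and deviations use a prior count of 2. Totals were 15615658 to 17988552 counts. CPM divide by a library's counts on tested genes times its TMM factor. On that scale 3 counts equal 0.148 to 0.239 CPM, a floor for counting error alone. No libraries agreed within sampling noise (median squared difference 6.55 to 84.1 times counting noise).

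Coding sequences (GENCODE vM21) were used for sequence and length only and were compared with blastn 2.17.0. Lengths matched 14005 of 14044 tested protein-coding genes. The test was tried on simulated counts with dispersions set below those fitted to these libraries. That trial therefore does not show how the test performs at their spread. Alternatives were other scalings and filters, DESeq2 1.42.0, limma 3.58.1 voom with and without quality weights, a replicate block, and left-out libraries. Summing copies, and leaving out WT replicate 2 with sST2-KO replicate 2, were added after seeing the data.

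Genes named are members fixed by role, the 4 lowest p per direction, the 3 highest and lowest levels per kilobase, the 3 changes farthest from the members' median on each side, and up to 3 lowest p per pathway list. Copies and overlapping genes are named with their member, and Il1rl1 and cell type markers as checks. Members named singly outside these rules are marked in the text as picked after their values were seen.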

Additional observations from a re-analysis of the deposited data

How the results depend on the processing

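No member was called under any of the 21 alternatives, and the lowest adjusted p of any member was 0.0926 (Rpl21, edgeR quasi-likelihood test without WT replicate 2 and sST2-KO replicate 2). Over all tested genes, the count of calls was 0 by edgeR and 291 by DESeq2 (59 higher, 232 lower), 43 by limma-voom with quality weights, 112 without WT replicate 2 and sST2-KO replicate 2 together, and 0 to 1 when 1 library was left out (1 without sST2-KO replicate 2). The count of members whose groups do not overlap was 1, against 19.1% of tested genes. With total counts and no scaling factor it was 2, against 15.3%, and with copies summed 2, against 19.1%. Without WT replicate 3 and sST2-KO replicate 2 together it was 14 (all higher), against 44.2% in either direction. Without WT replicate 2 and sST2-KO replicate 2 together it was 31 (11 higher, 20 lower), against 51.6%. When 1 library was left out it was 2 to 21, against 25.5% to 35.8%. Fewer libraries make separation easier. Without WT replicate 2 all 21 were lower, and without sST2-KO replicate 2 all 10 were higher. The shares of tested genes in these settings, 29.6% and 35.8%, count both directions. They are therefore not matched to counts that go 1 way, and the share in 1 direction is not given here. With all libraries in, WT replicate 2 was lowest for 56 members and sST2-KO replicate 2 for 15. With upper-quartile scaling the 1 member was lower instead of higher; the cause was not tested.

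The members' median log2 change was 0.05, and it was 0.01 with upper-quartile scaling (40 of 76 positive), 0.10 with total counts (61 positive, the median of all tested genes then being 0.15), -0.03 with quality weights, and -0.15 to 0.19 when 1 library was left out. The difference in the share of counts ranged from -0.34 to 0.52 percentage points when 1 library was left out.

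The labels give both groups replicate numbers 1 to 3. Same-numbered libraries correlated at 0.15, 0.05 and -0.09 in their deviations from the group means, so the numbers were not taken to pair them, and not every library correlated best with its own number. With a replicate block, 0 genes were called, the members' median was 0.09 and 1 member's groups did not overlap, against 19.1% of tested genes.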
